A study of Mus musculus with 21 samples.

Results

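The genes described here are the semaphorins, their plexin and neuropilin receptors, the Slits and Robos, and the netrins with their receptors. The rule that picks them uses gene symbols and no measured value, although the families were proposed with earlier results of these data known. Of the 48321 symbols in every count table, 47 matched: 7 secreted class 3 semaphorins, 13 membrane-anchored semaphorins of the other classes, 9 plexins, 2 neuropilins, 3 Slits, 4 Robos, 3 netrins and 6 netrin receptors. The low-count filter kept 14311 genes in all and 42 of the 47. The other 5, the netrin receptors Dcc and Unc5d, the netrin Ntn5, the plexin Plxnb3 and the semaphorin Sema3g, had group means of at most 0.669 CPM (counts scaled to a common library total) and were not tested.

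RNA was sequenced from 21 samples of embryoid bodies, the floating clusters in which mouse embryonic stem cells differentiate, labelled as C57BL/6 and collected after 3 days. All lines derive from A2loxCre cells, in which a transgene is placed behind a doxycycline-inducible promoter, and induction lasted 16 hours. The 7 groups of 3 samples were the A2loxCre parental line with doxycycline, a line with an integrated Twist1 monomer without doxycycline, the same line with doxycycline, and doxycycline-treated lines with a Twist1 homodimer, a Twist1-Tcf3 dimer, a Twist1-Tcf4 dimer or a Twist1-Tcf12 dimer. The parental line and all induced lines thus received doxycycline, and only the uninduced monomer line did not, so line and doxycycline cannot be told apart where it is set against the parental line. Twist1 encodes a transcription factor of the basic helix-loop-helix family, and Tcf3, Tcf4 and Tcf12 encode the E-proteins with which it pairs. Each construct is represented by 1 line, so construct and line cannot be told apart. The labels do not say whether the 3 samples of a group came from separate cultures. P-values therefore measure the spread between these samples, which may be technical.

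Mean Twist1 was 8.11 CPM (parental) and 5.07 CPM (uninduced monomer line), against 613.0 CPM (induced monomer), 182.3 CPM (homodimer) and 39.4 to 55.2 CPM in the 3 heterodimers. Mean Tcf4 was 47.5 CPM without a construct and 330.4 CPM with the Tcf4 construct. Mean Tcf3 was 167 CPM in parental samples and 154 CPM in the libraries labelled TCF3 dimer, so its counts do not show the construct named on the label. Mean Tcf12 was 66.1 CPM in parental samples, 90.4 CPM in the TCF4 dimer, 93.1 CPM in the libraries labelled TCF12 dimer and 104.3 CPM in those labelled TCF3 dimer. The TCF12 dimer samples were at 53.2, 117.7 and 108.2 CPM and the TCF3 dimer samples at 120.2, 91.3 and 101.5 CPM. Tcf12 thus does not separate the TCF12 from the TCF3 libraries. Both are therefore called by their labels below.

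Semaphorins are secreted or membrane-bound cues that plexins receive. Class 3 semaphorins mostly need a neuropilin as co-receptor, whereas Sema3e binds Plxnd1 directly. Slits repel growing axons through Robo receptors, and netrins attract through Dcc and Neo1 or repel through Unc5 receptors. Beyond the nervous system these families guide migrating mesoderm, neural crest and endothelial cells.

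The helix-loop-helix factors bind the E-box, CANNTG in either strand, so the 250 bases before each RefSeq start site (build GRCm38.p6) were searched for it. The promoters printed are those of members that rose in at least 1 heterodimer group and carry the main differences below. Each runs 5′ to 3′ on the gene's strand in lower case, with E-boxes in capitals, and stops before the first annotated exon of a protein-coding transcript. The Plxna2 stretch lies at chr1:194619579-194619824 on the plus strand, Plxnd1 at chr6:115995006-115995255 on the minus strand, Sema5b at chr16:35541112-35541361 on the plus strand and Slit2 at chr5:47982905-47983137 on the plus strand. The 2 Sema6d start sites have stretches at chr2:124089719-124089968 and chr2:124653331-124653580, both on the plus strand. The second Sema6d stretch and the Plxna2 stretch lie inside the GENCODE M21 bounds of their genes, and the Sema5b stretch runs into them. Whether these start sites are used in these cells was not tested.
Plxna2: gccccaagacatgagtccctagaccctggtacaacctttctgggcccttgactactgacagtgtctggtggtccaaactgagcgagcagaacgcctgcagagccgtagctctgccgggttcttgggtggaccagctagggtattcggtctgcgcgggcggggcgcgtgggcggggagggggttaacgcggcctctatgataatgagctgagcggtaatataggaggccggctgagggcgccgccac
Plxnd1: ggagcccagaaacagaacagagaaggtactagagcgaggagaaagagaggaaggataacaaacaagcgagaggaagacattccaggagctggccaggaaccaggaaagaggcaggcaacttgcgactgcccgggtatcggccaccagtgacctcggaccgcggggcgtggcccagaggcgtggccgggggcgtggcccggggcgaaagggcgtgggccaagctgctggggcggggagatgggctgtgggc
Sema5b: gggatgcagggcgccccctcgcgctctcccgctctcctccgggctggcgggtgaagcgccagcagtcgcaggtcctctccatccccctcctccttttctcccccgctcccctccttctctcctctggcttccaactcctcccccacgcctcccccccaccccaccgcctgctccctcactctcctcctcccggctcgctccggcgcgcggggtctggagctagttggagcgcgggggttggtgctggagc
Sema6d upstream: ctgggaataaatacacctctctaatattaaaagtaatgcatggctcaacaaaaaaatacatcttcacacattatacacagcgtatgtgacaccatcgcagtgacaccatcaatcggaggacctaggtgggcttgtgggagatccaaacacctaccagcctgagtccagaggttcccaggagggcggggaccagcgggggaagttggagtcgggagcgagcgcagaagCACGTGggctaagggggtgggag
Sema6d downstream: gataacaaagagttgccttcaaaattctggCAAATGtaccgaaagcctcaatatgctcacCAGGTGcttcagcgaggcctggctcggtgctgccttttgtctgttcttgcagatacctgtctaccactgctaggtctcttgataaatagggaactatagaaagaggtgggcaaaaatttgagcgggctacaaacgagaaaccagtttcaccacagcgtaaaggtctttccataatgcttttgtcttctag
Slit2: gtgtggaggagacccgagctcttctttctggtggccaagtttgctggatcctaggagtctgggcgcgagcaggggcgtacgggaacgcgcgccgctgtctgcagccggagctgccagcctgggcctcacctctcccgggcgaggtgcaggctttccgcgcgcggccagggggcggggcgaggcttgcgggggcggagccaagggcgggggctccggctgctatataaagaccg
Of these 6 stretches, only the 2 of Sema6d hold an E-box. The upstream site has CACGTG beginning at position -23 from the start site, and the other has CAAATG at -220 and CAGGTG at -190. Among members, 38 matched RefSeq with 51 promoters, of which 26 (51%) held CANNTG, against 66.2% of all 32851 promoters. The CATATG form was in 0 of the 51 and in 3.46% of all promoters. CAGATG or its reverse complement CATCTG was in 2 of the 51 (3.92%, Sema3c and Sema4a) and in 14.4% of all. Both forms are subsets of CANNTG, and these matches describe letters in the window only.

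The libraries held 6648842 to 15999693 counts, of which 5458 to 21920 fell on members. A floor of 3 counts corresponded to 0.188 to 0.451 CPM, for counting error only. TCF12 dimer sample 1 stood apart from the other samples of its group. Across members, the log2 level in this library minus the mean of samples 2 and 3 had a median of -0.53, and 36 of 42 members lay below 0, while the median over all 14311 tested genes was -0.02. Members are long, with a median merged exon length of 7.7 kb against 4.32 kb for all genes. The difference fell with exon length across members (Spearman -0.737, n = 42 genes of the same libraries) and across all 13909 tested genes with a known length (-0.575). It had a median of -0.88 in the 21 longer members and -0.21 in the 21 shorter ones. TCF12 values of named members are therefore given with and without it.

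**Figure D1:**
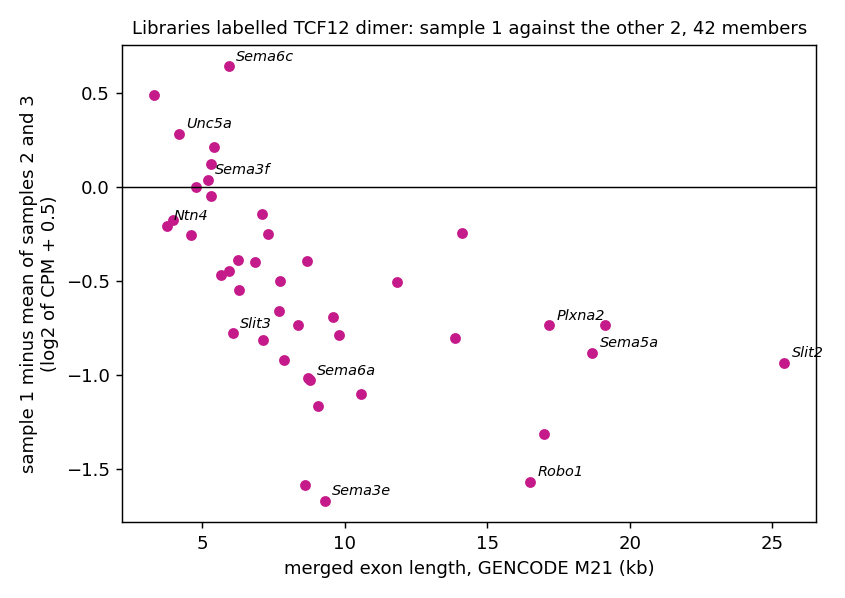
Log2 level of TCF12 dimer sample 1 minus the mean of samples 2 and 3 (log2 of CPM + 0.5, y axis) against merged exon length (x axis, kb), 1 point for each tested member. Sample 1 is lower for 36 of 42 members, and the difference is more negative for longer members (Spearman -0.737).

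On a per-length scale (mean CPM per kb of merged exon over the 7 groups), Unc5b was the highest member at 28.3 CPM per kb, followed by Plxna1 at 16.6, Plxnb2 at 12.9, Plxnb1 at 11.5 and Sema6a at 10.3 CPM per kb. Unc5b is a repulsive netrin receptor, and Plxna1, Plxnb1 and Plxnb2 are semaphorin receptors. Robo1 and Neo1 were the leading Robo and the leading member of the Dcc type by CPM, with group means of 43.7 to 73.6 CPM and 44.2 to 71.0 CPM. Dcc itself ranked last at 0.0051 CPM per kb. The embryoid bodies thus held mostly plexin, Unc5 and membrane semaphorin transcripts of the families described.

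Across the 7 groups, 36 of the 42 tested members (85.7%) passed the edgeR quasi-likelihood test at an adjusted p under 0.05, the threshold used throughout. Of all tested genes, 50.7% passed. By family, 5 of 6 tested class 3 semaphorins, 11 of 13 membrane semaphorins, 6 of 8 plexins, both neuropilins, all 3 Slits, 3 of 4 Robos, both netrins and 4 of 4 netrin receptors passed. The members that missed were Plxna1 (adjusted p = 0.16), Plxna3 (0.053), Robo4 (0.072), Sema3d (0.54), Sema4a (0.33) and Sema7a (0.24). Without TCF12 dimer sample 1, 39 passed, among them Plxna1 (adjusted p = 8.9e-05), Plxna3 (1.5e-05) and Robo4 (0.048), against 73.4% of all genes.

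Plxna2, a plexin that receives class 6 semaphorins and, with neuropilins, class 3 semaphorins, had the widest range of group means among the members on the log2(CPM + 0.5) scale. It lies at chr1:194618218-194816869. Its level was 7.19, 7.37 and 8.78 CPM in the 3 parental samples and 10.2, 11.9 and 12.3 CPM in the uninduced monomer line. After induction it was 22.5, 23.4 and 23.3 CPM in the monomer and 48.3, 38.4 and 40.3 CPM in the homodimer. The heterodimers were higher again, at 141, 115 and 128 CPM in the libraries labelled TCF3 dimer, 74.2, 74.6 and 63.2 CPM in the TCF4 dimer and 61.2, 106 and 98.4 CPM in those labelled TCF12 dimer. The parental, uninduced, monomer, homodimer and TCF3 groups did not overlap with one another, and TCF12 dimer sample 1 was the lowest heterodimer sample. Against the parental line the log2 fold change was 4.03 ± 0.18 (SE; adjusted p = 1.2e-11) in the TCF3 dimer libraries and 3.18 ± 0.18 (3.4e-10) in the TCF4 dimer. It was 3.51 ± 0.18 (8.5e-11) in the TCF12 dimer libraries, or 3.71 without sample 1. In order of level, each group differed from the next except the TCF4 and TCF12 dimers (difference 0.33 ± 0.15, adjusted p = 0.16), which did differ without TCF12 dimer sample 1 (0.54, 8.8e-05). The first step, uninduced monomer line against parental, was small (0.57 ± 0.20, adjusted p = 0.046) and missed the threshold in 17 of 21 fits that each left out 1 library (0.51 to 0.66, adjusted p 0.0041 to 0.14).

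Plxna4, another class A plexin, was low throughout. Its level was 0.327, 0 and 0.202 CPM in the parental samples, 0.325, 0.209 and 0.0977 CPM in the uninduced line and 1.14, 0.9 and 1.07 CPM in the induced monomer. The dimers were at 1.51, 1.35 and 0.926 CPM (homodimer), 3.31, 2.47 and 3.66 CPM (TCF3), 0.315, 0.77 and 0.973 CPM (TCF4) and 1.68, 1.72 and 2.5 CPM (TCF12). The parental and TCF4 samples overlapped, and those of the other induced lines lay above the parental samples. The log2 fold change against parental was 2.48 ± 0.59 (monomer), 2.76 ± 0.55 (homodimer), 4.07 ± 0.46 in the TCF3 dimer libraries and 3.41 ± 0.50 in the TCF12 dimer libraries (adjusted p = 0.0045, 0.0025, 1.6e-06 and 5.2e-05). The TCF12 value was 3.49 without sample 1. The TCF4 value, 1.93 ± 0.60 (adjusted p = 0.038), missed without parental sample 2 or 3 or TCF4 dimer sample 2 or 3, at an adjusted p of up to 0.19. Because 1 parental sample is at 0 and the others are near the floor, only the direction and the CPM should be read.

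Plxnd1, the receptor of Sema3e and a regulator of vessel patterning, rose in the 3 heterodimers. It stood at 4.47, 5.75 and 6.05 CPM in the parental samples, 4.56, 6.38 and 4.79 CPM in the uninduced line, 4.67, 4.5 and 5.27 CPM in the monomer and 4.75, 4.22 and 4.01 CPM in the homodimer. The 3 heterodimers had 16.2, 18.3 and 18.8 CPM (TCF3), 8.02, 7.1 and 7.72 CPM (TCF4) and 8.71, 11.3 and 9.69 CPM (TCF12). All 9 heterodimer samples lay above all 12 others. The log2 fold change against parental was 1.71 ± 0.14 (TCF3, adjusted p = 2.4e-08), 0.87 ± 0.14 (TCF12, 0.00019; 0.94 without sample 1) and 0.49 ± 0.15 (TCF4, 0.032). The TCF4 value missed the threshold in 5 of 21 fits without 1 library and with DESeq2, library-size scaling or no filter, at an adjusted p of up to 0.17. Directly compared, the TCF4 dimer was lower than the TCF3 libraries (-1.22 ± 0.13, adjusted p = 1.4e-06), while the TCF4 and TCF12 groups differed by 0.38 ± 0.13 (0.096), a difference that passed without TCF12 dimer sample 1 (0.46, 0.042).

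The neuropilins Nrp1 and Nrp2, co-receptors of class 3 semaphorins, were highest in the libraries labelled TCF3 dimer. Nrp2 was at 18.5, 19.5 and 17.7 CPM in the parental samples, 9.27, 8.99 and 11.5 CPM in the uninduced line, 15.2, 15.2 and 14.9 CPM in the monomer and 22.1, 17.0 and 20.9 CPM in the homodimer. In the heterodimers it stood at 51, 41.2 and 42.5 CPM (TCF3), 21.4, 20.96 and 21.05 CPM (TCF4) and 18.7, 27.1 and 26.3 CPM (TCF12). The 3 TCF3 samples exceeded all others, and the 3 uninduced samples were the lowest. Nrp2 rose by 1.27 ± 0.13 (log2, adjusted p = 4.6e-07) in the TCF3 libraries and fell by 0.89 (SE 0.15, adjusted p = 0.0002) in the uninduced monomer line. The TCF12 value, 0.38 ± 0.13 (adjusted p = 0.042), missed in 13 of 21 fits without 1 library and was 0.52 (0.00029) without TCF12 dimer sample 1. Nrp1 was at 4.25, 3.58 and 3.13 CPM in the parental samples, 5.37, 4.5 and 6.06 CPM in the uninduced line, 4.67, 4.84 and 4.84 CPM in the monomer and 3.35, 3.41 and 2.47 CPM in the homodimer. In the heterodimers it was at 7.44, 8.39 and 7.48 CPM (TCF3), 3.7, 4.02 and 2.86 CPM (TCF4) and 1.78, 2.54 and 4.6 CPM (TCF12). The TCF3 samples were again above all others, with a rise of 1.09 ± 0.23 (adjusted p = 0.0011).

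Other plexins moved less. Plxnc1, the receptor of Sema7a, fell from 6.76 ± 0.57 CPM (SD, n = 3, as in all means ± SD below) in the parental line to 3.69 ± 0.605 CPM in the TCF3 dimer libraries (log2 fold change -0.87, adjusted p = 0.0027). Plxna3 fell from 32.2 ± 0.16 to 23.3 ± 1.04 CPM there (-0.47, adjusted p = 0.042). Both calls in the TCF12 dimer libraries (Plxna3 -0.48, adjusted p = 0.043; Plxnc1 -0.55, 0.043) were lost without sample 1 (0.061 and 0.14). Plxnb1, the receptor of Sema4d, ranged from 86.6 ± 6.78 CPM in the uninduced line to 145 ± 0.455 CPM in the TCF4 dimer.

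**Figure D2:**
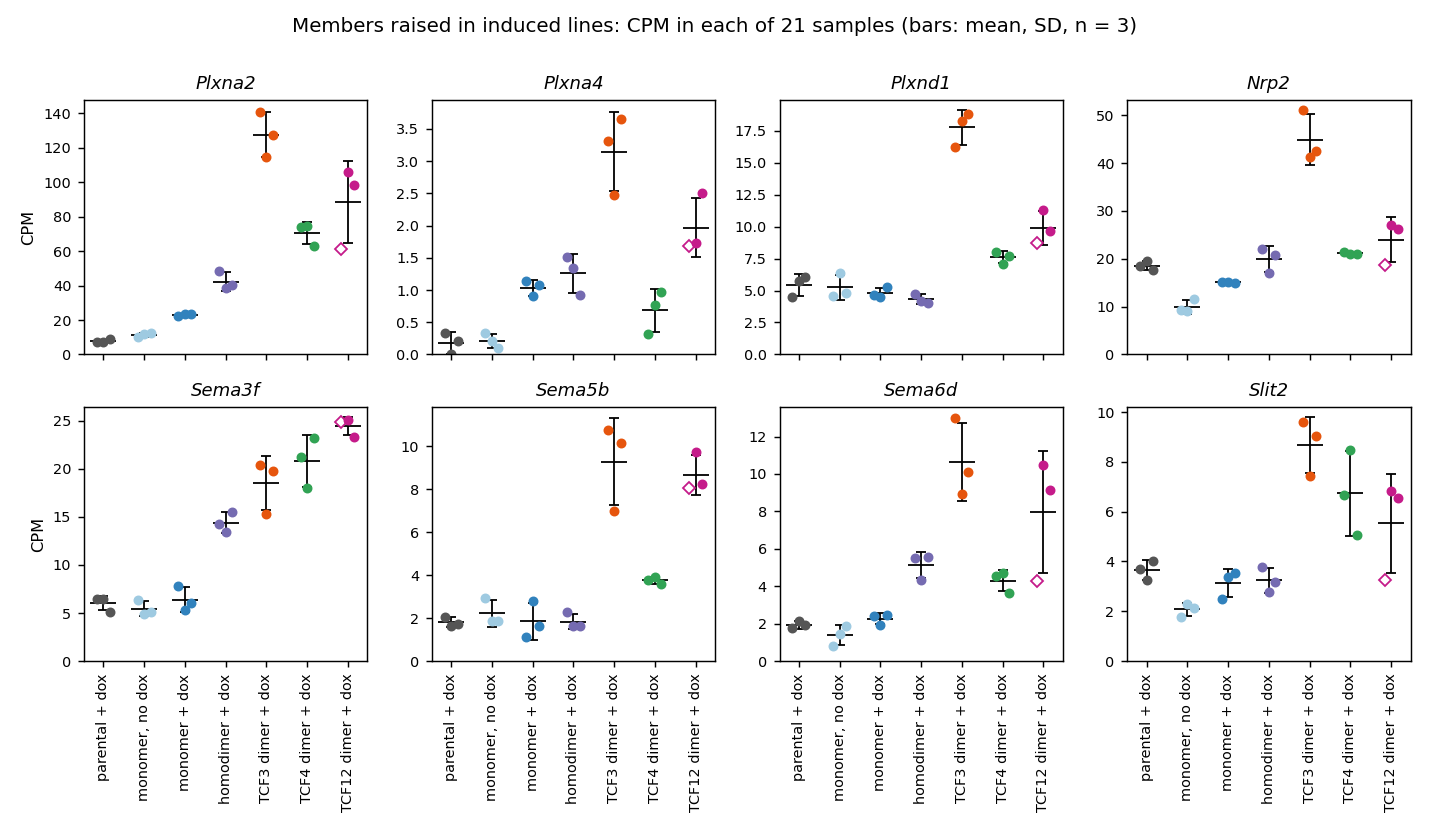
CPM in each of the 21 samples by group (linear y axis from 0), with points for samples, an open diamond for TCF12 dimer sample 1 and bars for mean and SD (n = 3), for members higher than the parental line in at least 1 induced line. Plxna2 rises from 7.78 CPM in the parental mean to 128 CPM in the libraries labelled TCF3 dimer, and Plxnd1 and Sema5b are high in the 3 heterodimers only among these groups.

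Among the secreted ligands, Sema3f (chr9:107681500-107710475), which repels through Nrp2, rose in every dimer group. It was at 6.43, 6.5 and 5.15 CPM in the parental samples, 6.35, 4.91 and 5.08 CPM in the uninduced line and 7.85, 5.29 and 6.02 CPM in the monomer. The dimers gave 14.2, 13.4 and 15.5 CPM (homodimer), 20.4, 15.3 and 19.8 CPM (TCF3), 21.2, 18.0 and 23.2 CPM (TCF4) and 24.9, 25.1 and 23.3 CPM (TCF12). All 12 dimer samples lay above the 9 others. The log2 fold changes against parental were 1.25 ± 0.16, 1.62 ± 0.15, 1.79 ± 0.15 and 2.02 ± 0.15 in the same order, with adjusted p = 1.9e-05, 1.8e-07, 1.1e-07 and 1.4e-08 (TCF12 without sample 1, 2.01). In the monomer it was 0.08 ± 0.17 (adjusted p = 0.81), and homodimer against monomer differed by 1.17 ± 0.16 (2.4e-05).

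Sema3a, the best known axon repellent of the class, acting through Nrp1, was low but rose in the libraries labelled TCF3 and TCF12 dimer. Its values were 1.09, 0.542 and 1.82 CPM (parental), 0.976, 0.627 and 1.07 CPM (uninduced), 0.683, 0.788 and 0.967 CPM (monomer) and 2.81, 1.35 and 4.01 CPM (homodimer). The heterodimers had 5.04, 3.88 and 5.37 CPM (TCF3), 2.91, 2.91 and 1.89 CPM (TCF4) and 3.15, 5.0 and 6.86 CPM (TCF12). The homodimer overlapped the parental samples, and each heterodimer lay above them. The rise was 2.03 ± 0.39 (adjusted p = 0.00057) in the TCF3 libraries and 2.12 ± 0.39 (0.00052) in the TCF12 libraries, or 2.34 without sample 1.

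Sema3c and Sema3e were below the parental line in several groups. Sema3c, which acts in cardiac neural crest migration, was at 5.56, 6.4 and 6.26 CPM (parental), 4.72, 3.66 and 3.13 CPM (uninduced), 1.71, 2.14 and 1.72 CPM (monomer) and 2.81, 3.32 and 2.37 CPM (homodimer). Values in the heterodimers were 1.65, 3.18 and 1.87 CPM (TCF3), 3.22, 4.88 and 4.26 CPM (TCF4) and 1.99, 3.53 and 4.28 CPM (TCF12). All 18 other samples lay below the 3 parental ones. It fell by 1.71 (monomer, adjusted p = 0.00016), 1.09 (homodimer, 0.0079), 1.45 (TCF3, 0.00025) and 0.87 (TCF12, 0.013; -0.64 without sample 1), and the TCF4 value of -0.56 ± 0.23 missed (0.13). Sema3e, the Plxnd1 ligand, was at 27.4, 24.0 and 26.1 CPM (parental), 11.9, 16.5 and 18.7 CPM (uninduced), 13.1, 11.1 and 13.6 CPM (monomer) and 14.2, 17.2 and 18.9 CPM (homodimer). For the heterodimers, levels were 10.9, 12.5 and 13.4 CPM (TCF3), 15.5, 16.3 and 16.5 CPM (TCF4) and 4.83, 14.9 and 18.1 CPM (TCF12). The 3 parental samples were above all others, and TCF12 dimer sample 1 was the lowest of the 21. The log2 fold change was -1.03 ± 0.27 (monomer), -1.07 ± 0.26 (TCF3) and -1.01 ± 0.26 (TCF12), with adjusted p = 0.0095, 0.0046 and 0.0087, and the TCF12 value was -0.65 (0.00014) without sample 1. The levels of this ligand and of its receptor Plxnd1 thus lay on opposite sides of the parental line in the TCF3 and TCF12 dimer libraries.

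Of the membrane semaphorins, Sema5b (chr16:35541145-35664732) and Sema6d (chr2:124089969-124667770) rose most. Sema5b, a class 5 semaphorin with thrombospondin repeats, was at 2.07, 1.63 and 1.72 CPM (parental), 2.93, 1.88 and 1.86 CPM (uninduced), 1.14, 2.81 and 1.61 CPM (monomer) and 2.27, 1.62 and 1.65 CPM (homodimer). The heterodimers had 10.7, 6.97 and 10.2 CPM (TCF3), 3.77, 3.93 and 3.59 CPM (TCF4) and 8.08, 9.76 and 8.23 CPM (TCF12). No heterodimer sample overlapped the other 12. The log2 fold change against parental was 2.36 ± 0.24 (adjusted p = 3.9e-07), 1.05 ± 0.26 (0.0094) and 2.27 ± 0.24 (1e-06) in the same order, and 2.31 for TCF12 without sample 1. Homodimer and parental differed by 0.02 ± 0.30 (0.99). The TCF4 value had an adjusted p of 0.05 without parental sample 2.

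Sema6d, a Plxna1 ligand in heart development, was at 1.74, 2.17 and 1.92 CPM (parental), 0.814, 1.46 and 1.86 CPM (uninduced), 2.39, 1.91 and 2.47 CPM (monomer) and 5.5, 4.31 and 5.56 CPM (homodimer). The 3 heterodimer groups were at 13.0, 8.92 and 10.1 CPM (TCF3), 4.56, 4.7 and 3.65 CPM (TCF4) and 4.3, 10.5 and 9.12 CPM (TCF12). All 12 dimer samples lay above the 9 others, and TCF12 dimer sample 1 was near the TCF4 values. The log2 fold changes were 1.39 ± 0.31 (homodimer, adjusted p = 0.0058), 2.45 ± 0.28 (TCF3, 2.1e-06), 1.13 ± 0.31 (TCF4, 0.018) and 2.05 ± 0.29 (TCF12, 3.3e-05; 2.33 without sample 1). The TCF4 value missed without parental sample 1 or 3 or TCF4 dimer sample 1 or 2, at an adjusted p of up to 0.072.

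Sema6a, which signals through Plxna2 and Plxna4, was the most abundant semaphorin and highest in the parental line. It was at 148, 147 and 152 CPM (parental), 70.8, 67.2 and 70.7 CPM (uninduced), 68.5, 66.1 and 63.8 CPM (monomer) and 81.5, 73.4 and 77.3 CPM (homodimer). Its heterodimer values were 74.1, 69.6 and 72.3 CPM (TCF3), 113, 103 and 110.1 CPM (TCF4) and 51.4, 101 and 110.1 CPM (TCF12). All 18 other samples lay below the parental ones. It fell by 1.17 (monomer, adjusted p = 3.7e-05), 0.94 (homodimer, 0.00067), 1.05 (TCF3, 7.7e-05), 1.10 (uninduced, 8.8e-05) and 0.76 (TCF12, 0.0021). Without TCF12 dimer sample 1 the TCF12 value was -0.50 (3e-08), and the TCF4 value of -0.45 (adjusted p = 0.079 with all libraries) passed (2.2e-08). Against the uninduced monomer line, TCF4 was higher by 0.65 (adjusted p = 0.0051).

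Sema4b, Sema4c and Sema4g differed between the lines in other ways. Sema4g was at 5.23, 5.64 and 4.74 CPM (parental), 13.2, 10.3 and 9.38 CPM (uninduced), 9.67, 11.1 and 10.5 CPM (monomer) and 4.75, 4.04 and 4.73 CPM (homodimer). In the heterodimers it stood at 7.61, 6.71 and 8.3 CPM (TCF3), 4.25, 4.02 and 4.68 CPM (TCF4) and 3.46, 5.0 and 4.44 CPM (TCF12). The 6 monomer-line samples were highest and the TCF3 samples next. Sema4g rose by 1.06 ± 0.15 (uninduced, adjusted p = 4.6e-05), 1.01 ± 0.15 (monomer, 6.5e-05) and 0.54 ± 0.15 (TCF3, 0.012; missed without parental sample 3 or TCF3 dimer sample 3, up to 0.066). The summed level of 7 primitive endoderm markers (7 of 7 found) was also highest there, at 1400 to 1570 CPM (uninduced), 1300 to 1390 CPM (monomer) and 904 to 1030 CPM (TCF3), against 421 to 423 CPM (parental) and 238 to 325 CPM in the other groups. In bulk samples, fewer cells of a type and less RNA per cell cannot be told apart, and the part of these cells in the Sema4g levels was not tested.

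Sema4b was at 40.1, 35.9 and 33.6 CPM (parental), 51.9, 54.8 and 49.6 CPM (uninduced), 43.6, 45.2 and 51.7 CPM (monomer) and 40.5, 37.1 and 40.3 CPM (homodimer). Values in the heterodimers were 31.7, 36.9 and 33.1 CPM (TCF3), 29.4, 31.1 and 31.6 CPM (TCF4) and 21.5, 29.7 and 30.1 CPM (TCF12). The monomer samples lay above the parental ones and the TCF4 and TCF12 samples below them. It rose by 0.36 ± 0.11 in the monomer (adjusted p = 0.026) and fell by 0.42 (SE 0.11, 0.009) in the TCF12 dimer libraries, or by 0.29 (0.012) without sample 1. The monomer call was lost without parental sample 2 or 3 or monomer sample 2 or 3 and the TCF12 call without parental sample 1 (adjusted p up to 0.15 and 0.052). Sema4c was at 33.1, 30.1 and 33.3 CPM (parental), 22.3, 22.8 and 21.1 CPM (uninduced), 19.6, 22.6 and 22.7 CPM (monomer) and 30.0, 28.4 and 30.5 CPM (homodimer). For the heterodimers, levels were 36.1, 32.1 and 32.2 CPM (TCF3), 41.0, 37.3 and 38.6 CPM (TCF4) and 33.7, 40.1 and 40.4 CPM (TCF12). The 6 monomer-line samples were the lowest. Sema4c, a Plxnb2 ligand, fell by 0.57 (monomer, adjusted p = 0.00011) and 0.55 (uninduced, 0.00022). Its rises of 0.27 ± 0.09 (TCF4, 0.041) and 0.24 ± 0.09 (TCF12, 0.043) missed in 13 and 19 of 21 fits without 1 library. The TCF12 value was 0.32 (0.0017) without sample 1. An antisense transcript, D430040D24Rik, overlaps 7.27% of Sema4c exon bases, and reads from the strands cannot be told apart where strand was not used in counting, which is not given in the sources used here.

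Sema5a, the other class 5 member, was at 12.8, 15.6 and 15.4 CPM (parental), 8.95, 7.0 and 7.72 CPM (uninduced), 8.76, 11.4 and 9.78 CPM (monomer) and 14.8, 12.8 and 15.2 CPM (homodimer). The 3 heterodimer groups were at 21.5, 19.4 and 17.5 CPM (TCF3), 17.1, 13.6 and 14.5 CPM (TCF4) and 9.86, 18.1 and 19.0 CPM (TCF12). The TCF3 samples lay above the parental ones without passing (0.41 ± 0.18, adjusted p = 0.096), and the uninduced samples were lower (-0.90 ± 0.20, 0.003). Sema6b fell by 0.79 in the monomer and 0.52 in the uninduced line (adjusted p = 0.0001 and 0.0043). Sema4d, the Plxnb1 ligand, fell by 0.35 in the monomer (0.047) and 0.69 in the TCF12 dimer libraries (0.00031; -0.51 without sample 1).

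Slit2 and Slit3, ligands of the Robos, lay on opposite sides of the parental line in the TCF3 dimer libraries. Slit2 (chr5:47983138-48307733) was at 3.71, 3.25 and 4.04 CPM (parental), 1.79, 2.3 and 2.15 CPM (uninduced), 2.5, 3.38 and 3.55 CPM (monomer) and 3.78, 2.78 and 3.19 CPM (homodimer). Its heterodimer values were 9.59, 7.41 and 9.03 CPM (TCF3), 6.68, 8.47 and 5.05 CPM (TCF4) and 3.25, 6.81 and 6.54 CPM (TCF12). All TCF3 and TCF4 samples lay above the parental ones, and TCF12 dimer sample 1 did not. Slit2 rose by 1.24 ± 0.24 (TCF3, adjusted p = 0.0005) and 0.86 ± 0.24 (TCF4, 0.021). The TCF12 value of 0.61 ± 0.25 missed (0.07) with all libraries and passed without sample 1 (0.86, 0.0015). The TCF4 call was lost without parental sample 1 or 2 or TCF4 dimer sample 1 or 2 (up to 0.12).

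Slit3 (chr11:35121224-35708507) was at 48.8, 57.2 and 55.2 CPM (parental), 20.01, 14.3 and 16.6 CPM (uninduced), 15.2, 15.2 and 17.0 CPM (monomer) and 32.7, 25.9 and 26.8 CPM (homodimer). In the heterodimers it stood at 40.3, 39.5 and 37.7 CPM (TCF3), 46.6, 40.1 and 45.4 CPM (TCF4) and 22.9, 37.3 and 42.1 CPM (TCF12). The parental samples were the highest, and the 6 monomer-line samples were low to a like degree. Slit3 fell by 1.76 (SE 0.17, adjusted p = 3.2e-07) in the monomer, 1.68 (7.3e-07) in the uninduced line and 0.92 (0.00067) in the homodimer. In the TCF12 dimer libraries it fell by 0.65 (0.0052; -0.44 without sample 1), and in the TCF3 libraries by 0.46 (0.035), a call lost in 6 of 21 fits without 1 library. Induction in the monomer line left a difference of -0.09 ± 0.18. Measured against the uninduced line, every dimer group was higher, by 0.76 (homodimer), 1.22 (TCF3), 1.39 (TCF4) and 1.03 (TCF12; 1.26 without sample 1). The sign of the Slit3 difference for the dimers thus depends on which control line is used.

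Of the Robos, which are the receptors of the Slits, Robo2 was at 0.436, 0.325 and 0.505 CPM in the parental samples and 2.23, 1.32 and 1.63 CPM in the TCF3 dimer libraries. It reached 1.34, 1.03 and 0.912 CPM in the TCF4 dimer and 0.42, 1.81 and 1.78 CPM in the TCF12 dimer libraries, with at most 0.814 CPM in any sample of the other 4 groups. Robo2 rose by 2.00 ± 0.49 (TCF3, adjusted p = 0.0045) and 1.68 ± 0.52 (TCF12, 0.022; 2.05 without sample 1). These Robo2 rises start from parental counts close to the floor. Robo1 passed across the 7 groups (0.045) but in no comparison with the parental line while all libraries were used. Without TCF12 dimer sample 1 its TCF12 value was 0.43 (3.3e-05). The monomer line lay the other way, with Robo1 means of 45.0 CPM (uninduced) and 43.7 CPM (induced) against 66.9 CPM (parental).

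**Figure D3:**
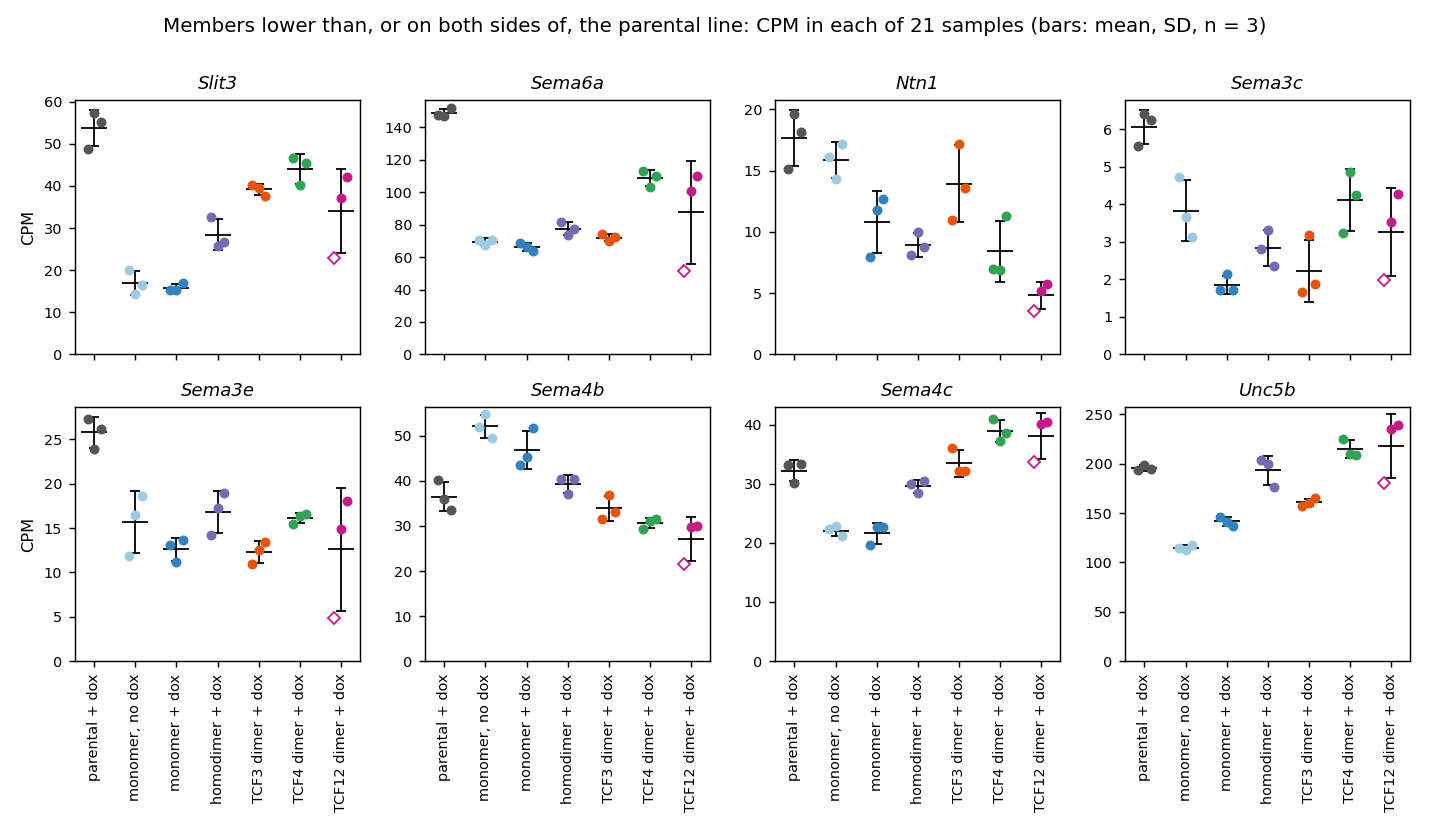
CPM in each of the 21 samples by group (linear y axis from 0), with points for samples, an open diamond for TCF12 dimer sample 1 and bars for mean and SD (n = 3), for members lower than the parental line in at least 1 line. Slit3 and Sema6a are highest in the parental samples, and Sema4b, Sema4c and Unc5b have groups on both sides of the parental line.

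Among the netrins, Ntn1 (chr11:68209364-68400823), the founding attractant of the family, fell and Ntn4 rose. Ntn1 was at 15.2, 19.6 and 18.2 CPM (parental), 16.1, 14.3 and 17.2 CPM (uninduced), 7.97, 11.8 and 12.7 CPM (monomer) and 8.09, 9.96 and 8.75 CPM (homodimer). Values in the heterodimers were 10.99, 17.2 and 13.6 CPM (TCF3), 7.0, 6.93 and 11.3 CPM (TCF4) and 3.57, 5.17 and 5.73 CPM (TCF12). The uninduced and TCF3 samples overlapped the parental ones, and the other 4 groups lay below them. It fell by 1.85 (SE 0.23, adjusted p = 6.2e-06) in the TCF12 libraries (-1.70 without sample 1), 1.05 (0.0017) in the TCF4 dimer and 0.98 (0.0051) in the homodimer. The monomer value of -0.70 ± 0.21 (0.023) was lost without parental sample 2 or 3 or monomer sample 1 (up to 0.12).

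Ntn4, a basement membrane netrin, was at 0.654, 0.542 and 0.606 CPM in the parental samples, 2.89, 1.77 and 2.52 CPM in the TCF3 dimer libraries and 2.62, 3.94 and 2.42 CPM in the TCF12 dimer libraries. It was at 0.488, 0.941 and 1.27 CPM in the uninduced line, 1.93, 1.24 and 0.967 CPM in the monomer, 0.863, 0.898 and 0.72 CPM in the homodimer and 0.786, 1.45 and 1.64 CPM in the TCF4 dimer. All samples of the induced lines lay above the parental ones. The rises in the TCF3 and TCF12 libraries were 1.98 ± 0.36 (adjusted p = 0.00038) and 2.30 ± 0.35 (8.7e-05; 2.38 without sample 1). The monomer (1.18, adjusted p = 0.055) and TCF4 values (1.11, 0.075) missed, and both passed without TCF12 dimer sample 1 (0.033 and 0.037). Of the receptors, Unc5c was at 0.327, 0.325 and 0.505 CPM in the parental samples, 0, 0.418 and 0.195 CPM in the uninduced line, 0.569, 0.225 and 0 CPM in the monomer and 0.54, 0.359 and 0.206 CPM in the homodimer. For the heterodimers, levels were 4.22, 2.91 and 3.01 CPM (TCF3), 0.944, 1.45 and 0.669 CPM (TCF4) and 1.36, 2.54 and 2.66 CPM (TCF12). All 9 heterodimer samples were above all 12 others. Unc5c rose by 3.08 ± 0.46 (4.6e-05) in the TCF3 libraries and 2.49 ± 0.50 (0.0011) in the TCF12 libraries (2.71 without sample 1), from parental counts close to the floor.

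Unc5b, the most abundant member, was at 193, 199 and 195 CPM (parental), 114, 113 and 118 CPM (uninduced), 146, 141 and 137 CPM (monomer) and 204, 199.7 and 176 CPM (homodimer). The 3 heterodimer groups were at 157, 160.3 and 165 CPM (TCF3), 225, 209.6 and 209 CPM (TCF4) and 181, 235 and 239 CPM (TCF12). The uninduced samples were lowest, then the monomer and TCF3 samples. Unc5b fell by 0.77 (SE 0.09, adjusted p = 2.6e-06) in the uninduced line, 0.47 (0.00051) in the monomer and 0.28 (0.017) in the TCF3 libraries.

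The comparisons with the parental line share its 3 samples, so their counts are given side by side and not compared. In the monomer, 15 of 42 members passed (4 higher, 11 lower), against 20% of all genes (10.8% higher and 9.22% lower). The median log2 fold change of members was -0.41 against 0.01 for all genes. In the homodimer, 8 passed (4 higher, 4 lower) against 8.84% (4.81% and 4.02%), with a median of -0.11. The members that rose in the homodimer were Plxna2 (2.44), Plxna4, Sema3f and Sema6d, and those that fell were Ntn1, Sema3c, Sema6a and Slit3.

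In the libraries labelled TCF3 dimer, 22 passed (14 higher, 8 lower) against 28.3% of all genes (16.3% and 12%). In the TCF4 dimer, 9 passed (8 higher, 1 lower) against 12.9% (7.18% and 5.67%). In the libraries labelled TCF12 dimer, 26 passed (15 higher, 11 lower) against 27% (15.5% and 11.5%), with Robo3 (1.08, or 1.23 without sample 1) among the risers and Robo4 (-1.20, or -1.15) among the fallers. In the uninduced monomer line, 13 passed (3 higher, 10 lower) against 19.9% (10.5% and 9.43%).

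Without TCF12 dimer sample 1 the shared estimate of spread was smaller and the counts were higher. They were then 24 for the monomer (against 35.2% of all genes), 12 for the homodimer (20.4%), 27 in the TCF3 libraries (46.5%), 22 in the TCF4 dimer (28.1%), 30 in the TCF12 libraries (30.3%) and 23 in the uninduced line (36.8%). For TCF12, 22 of these 30 were among the 26 called with all libraries. The lost members were Plxna3, Plxnc1, Sema6c and Unc5a. Leaving out other libraries lowered some counts by more than 1.5 times, to 4 in the TCF4 dimer without parental sample 2, and to 16 in the TCF12 libraries and 8 in the uninduced line without parental sample 1.

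**Figure D4:**
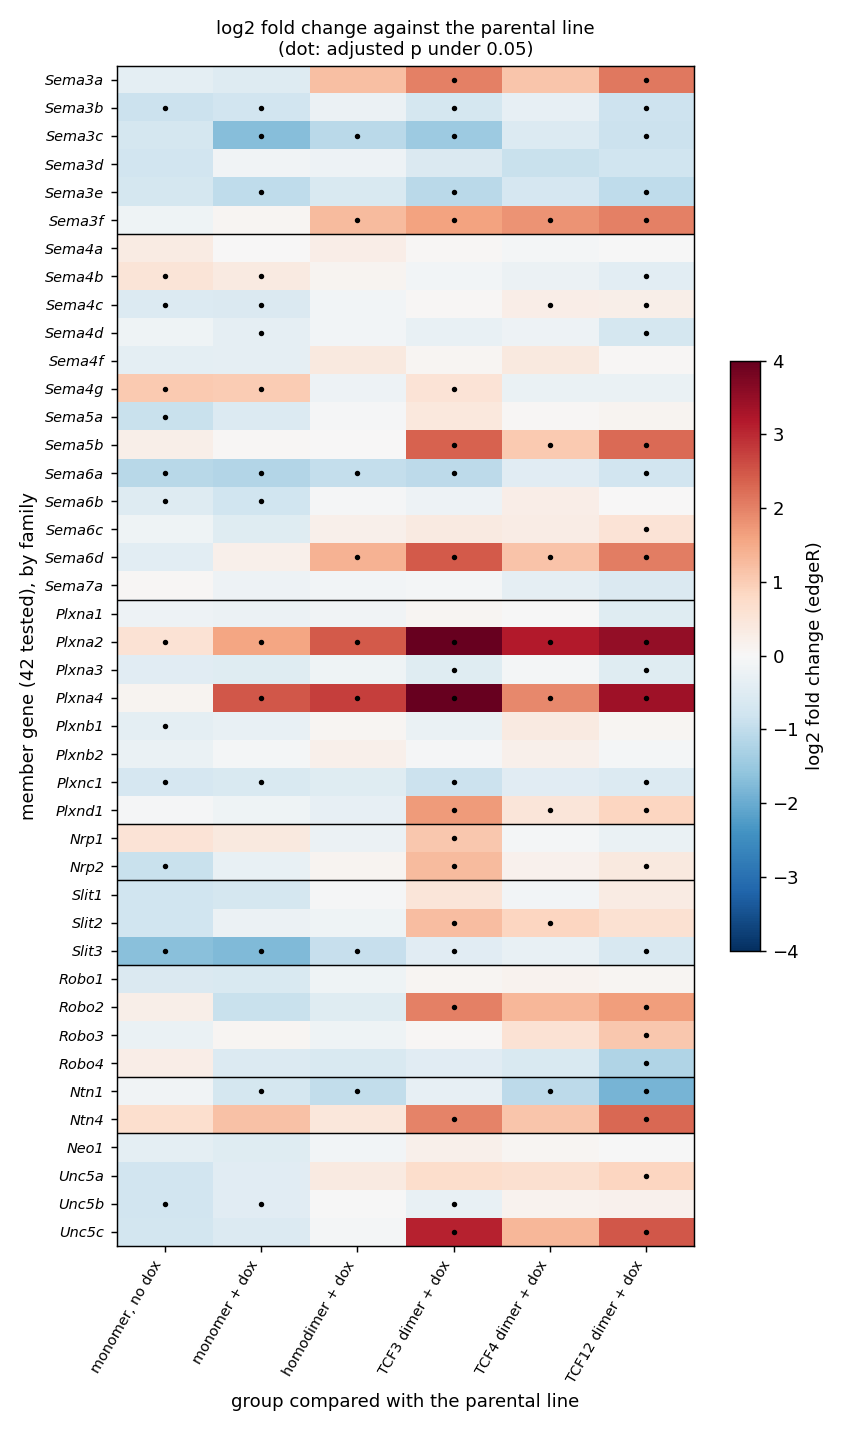
Log2 fold change against the parental line for each tested member (rows) in each line (columns), by family, as colour from blue (lower) to red (higher), with a dot where the adjusted p was under 0.05. Plxna2 is higher in all 6 columns, whereas Slit3, Sema6a and Sema3c are lower in all 6, not all of them with a dot.

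Induction within the monomer line is the comparison with the same line as control. Only 3 of 42 members passed, all higher, against 2% of all genes. These were Plxna2 (0.99 ± 0.18, adjusted p = 0.0029), Nrp2 (0.60 ± 0.15, 0.043) and Plxna4 (2.36 ± 0.59, 0.044). The Plxna2 samples did not overlap between the uninduced and induced groups. Nrp2 and Plxna4 each missed in 14 of 21 fits without 1 library (up to 0.23). Without TCF12 dimer sample 1, Unc5b (0.30, adjusted p = 0.00024) and Sema3c (-1.01, 0.015) also passed, against 6.17% of all genes. Of the 13 members that differed between the uninduced and parental lines, Plxna2 and Nrp2 also passed on induction. Plxna2 was higher in both comparisons (0.57 and 0.99). Nrp2 was lower in the uninduced line (-0.89) and higher on induction (0.60), towards its parental level. Both comparisons share the uninduced samples. The other 11 missed with all libraries: Slit3, Sema6a, Sema4b, Sema4c and Sema4g had log2 differences between -0.15 and -0.03, Sema3b, Plxnb1 and Plxnc1 between 0.05 and 0.11, Unc5b 0.30, Sema5a 0.35 and Sema6b -0.27.

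The 3 heterodimers together were compared with the homodimer. These lines differ in the partner joined to Twist1, in Twist1 level (group means of 39.4 to 55.2 CPM against 182 CPM) and as lines, and these cannot be told apart. The comparison called 12 of 42 members (11 higher, 1 lower) against 14% of all genes (7.99% and 6.04%), with a member median of 0.21 against 0.01 for all genes. The largest rises were Unc5c (2.38 ± 0.45, adjusted p = 0.00094), Robo2 (2.16 ± 0.48, 0.0039), Sema5b (1.87 ± 0.21, 5.1e-06), Plxnd1 (1.35 ± 0.13, 4.8e-07) and Ntn4 (1.34 ± 0.30, 0.0039). Homodimer means of Unc5c (0.37 CPM) and Robo2 (0.31 CPM) are near the floor, so the size and rank of these rises are uncertain. Plxna2 (1.13 ± 0.13), Slit2 (1.09 ± 0.21), Sema3f (0.56 ± 0.12), Nrp2 (0.51 ± 0.11), Slit3 (0.46 ± 0.13) and Sema4c (0.31 ± 0.07) were also higher, and Sema4b (-0.37 ± 0.09) was lower. The group thus included receptors of all 3 ligand families and the ligands Slit2, Slit3, Sema3f, Sema4c, Sema5b and Ntn4. A mean of the 3 heterodimers can pass without each of them being higher. Nrp2 means were 44.92 CPM (TCF3), 21.13 CPM (TCF4) and 24.02 CPM (TCF12), against 19.99 CPM (homodimer). Its TCF4 samples lay within the range of the homodimer samples. Without TCF12 dimer sample 1, Nrp2 in the TCF12 libraries was above the homodimer by 0.42 (edgeR, adjusted p = 0.0033). The Nrp2 and Sema4c calls were lost without homodimer sample 2 (adjusted p = 0.055 and 0.059), and the Slit3 call without homodimer sample 2 or 3 (up to 0.18). With homodimer sample 2 left out, 8 members passed in all. With TCF12 dimer sample 1 left out, the 12 values had the same signs (Unc5c 2.45, Robo2 2.27, Sema5b 1.88, Sema4b -0.33), and 21 members passed (18 higher, 3 lower) against 28.9%, with Robo1 (0.39, 4.4e-06) and Sema6d (0.58, 0.0026) among those added.

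**Figure D5:**
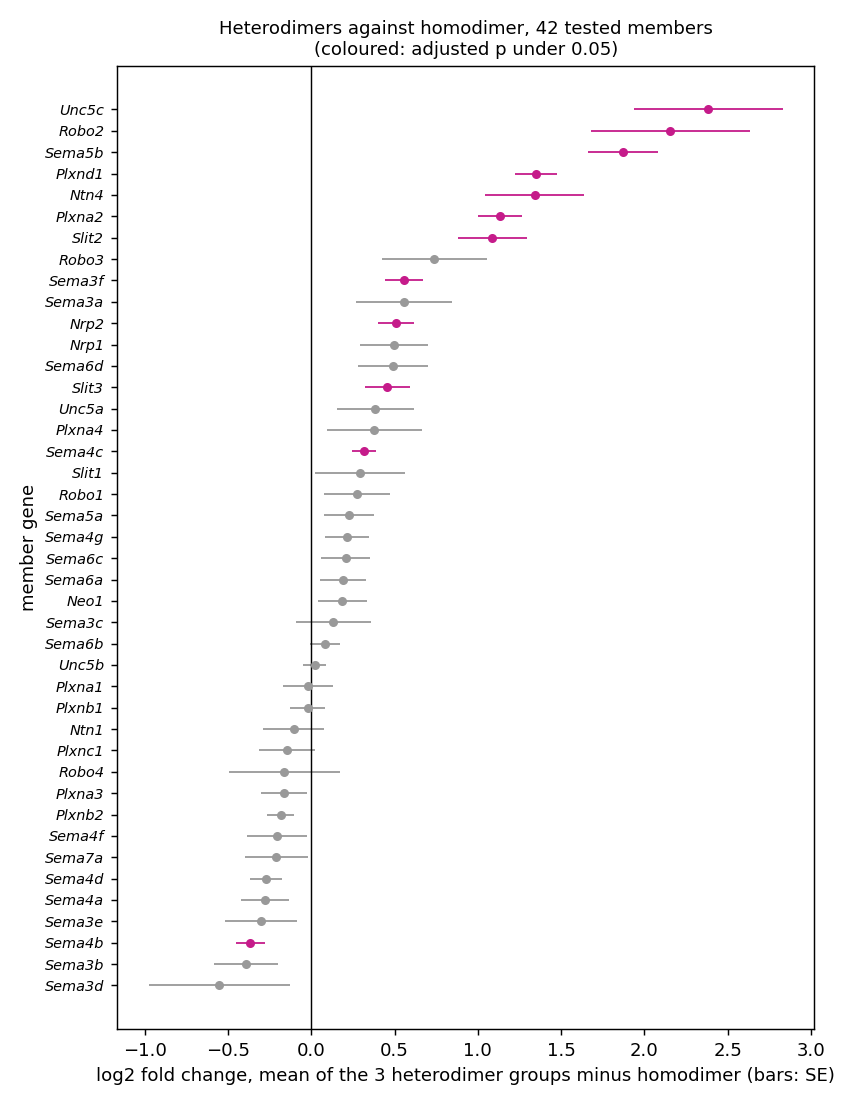
Log2 fold change of the mean of the 3 heterodimers against the homodimer for 42 tested members (points), with bars for standard errors and colour for an adjusted p under 0.05. Unc5c, Robo2, Sema5b, Plxnd1 and Ntn4 lie highest (1.34 to 2.38), and Sema4b (-0.37) is the one member that passed as lower.

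Among the 3 heterodimers, 18 of 42 members differed, against 26% of all genes. The smallest adjusted p-values were those of Plxnd1 (2.8e-06), Nrp2 (5.4e-06), Sema5b (0.00019), Nrp1 (0.00024) and Plxna4 (0.00027). Nrp2 was lower than in the TCF3 libraries both in the TCF4 dimer (log2 difference -1.09 ± 0.13, adjusted p = 5e-06) and in the TCF12 libraries (-0.90 ± 0.13, 6.4e-05). Sema5b was lower in the TCF4 dimer than in the TCF3 libraries (-1.31 ± 0.20, 0.00012) and higher in the TCF12 libraries than in the TCF4 dimer (1.21 ± 0.20, 0.004), while TCF3 and TCF12 differed by -0.10 ± 0.19 (0.74). Ntn1 was lower in the TCF12 than in the TCF3 libraries (-1.51 ± 0.23, 0.00013). Leaving out TCF12 dimer sample 1, the TCF12 differences were -0.74 for Nrp2 and -1.34 for Ntn1 against TCF3, and for Sema5b 1.26 against TCF4 and -0.05 against TCF3. In that fit 28 members differed, against 40.1%.

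The wider guidance pathway was followed with 40 other genes, among them repulsive guidance molecules, Flrt proteins, vascular endothelial growth factors and their receptors, collapsin response mediators, Mical enzymes and intracellular adaptors. Of the 38 tested, 30 passed across the 7 groups, against 50.7% of all genes. In the libraries labelled TCF3 dimer, 22 rose and 3 fell (all genes 16.3% and 12%), in the TCF4 dimer 13 rose and 1 fell (7.18% and 5.67%). The libraries labelled TCF12 dimer had 17 that rose and 6 that fell (15.5% and 11.5%). The median log2 fold change of the list was 0.47, 0.24 and 0.39 in that order, against 0.01, 0.00 and 0.02 over all genes. Kdr, the main receptor of vascular endothelial growth factor A, rose by 2.81, 1.41 and 2.19. Mical2, an actin-oxidising enzyme of the family that plexins use, rose by 2.10, 1.26 and 1.46. In the monomer 5 rose and 6 fell (10.8% and 9.22%) and in the homodimer 5 rose and 3 fell (4.81% and 4.02%). On induction within the monomer line 3 rose and none fell, against 2% of all genes in both directions together (Dpysl3 0.55, Crmp1 0.48 and Fyn 0.29). Heterodimers against homodimer gave 12 higher and 3 lower (7.99% and 6.04%).

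Markers of other cell types were also measured. The summed level of 6 lateral and extra-embryonic mesoderm markers, which include Kdr (6 of 6 found), was 36.3 to 113 CPM in the 3 heterodimers. It was at most 10.4 CPM in every other sample. Plxnd1, Sema5b and Unc5c were also higher in the heterodimers, but in another order among them. Snai1, the largest part of the sum there, had means of 45.4 CPM (TCF3), 26.9 CPM (TCF4) and 58.5 CPM (TCF12), while these members had their highest means in TCF3. TCF12 dimer sample 1 had the highest Snai1 (78.7 CPM) but the lowest Plxnd1 (8.71 CPM) and Unc5c (1.36 CPM) of its group. The 7 neuron markers (7 of 7 found) summed to 177 to 266 CPM in the dimers, 142 to 145 CPM in the parental line and 116 to 133 CPM in the monomer line. Within that sum, Tubb3 had group means of 39.0 CPM (parental), 47.6 CPM (uninduced), 59.6 CPM (monomer) and 87.5 to 117 CPM (dimers). Syp was also higher in the heterodimers (6.37 to 6.94 CPM) than in the parental line (4.43 CPM) and homodimer (4.74 CPM). Map2 was at 24.1 CPM (TCF4) and 18.9 CPM (TCF12), against 15.4 CPM (TCF3), 15.9 CPM (parental) and 14.9 CPM (homodimer). Elavl3 had lower means in the heterodimers (4.93 to 6.84 CPM) than in the parental line (8.17 CPM) and the homodimer (12.3 CPM). Dcx was at 0.28 to 0.43 CPM in the heterodimers against 1.02 and 1.05 CPM in the parental line and homodimer, and at 0.07 and 0.30 CPM in the monomer line. Stmn2 was at 56.0 to 70.7 CPM in the heterodimers against 73.7 CPM (parental) and 73.4 CPM (homodimer), and Rbfox3 at 0.56 to 1.53 CPM in all groups. Endothelial markers summed to 8.08 to 27.7 CPM, highest in the TCF3 libraries (24.4 to 27.7 CPM), and blood markers to 4.28 to 10.1 CPM. Primitive streak markers summed to 196 to 235 CPM in the parental line and 15.5 to 40.6 CPM elsewhere. Sema3c, Sema3e, Sema6a and Slit3 were also highest in the parental line, but not all followed this sum in the other groups. It was 26.3 to 28.2 CPM (monomer) and 26 to 28 CPM (TCF4), where Slit3 means were 15.8 and 44.0 CPM. Pluripotency markers summed to 948 to 1200 CPM in the heterodimer samples and 1280 to 1520 CPM in all others. Epiblast markers summed to 3060 to 3160 CPM in the parental line and 2610 to 2780 CPM in the uninduced line. In the induced lines the sum was 1210 to 2290 CPM. Dnmt3b made up most of it, with a mean of 2666 CPM in the parental line. Otx2 was higher in the heterodimers (213 to 228 CPM) than in the parental line (192 CPM), while Dnmt3b, Fgf5 and Pou3f1 were lower. Pou3f1 was highest in the uninduced line (151 CPM). Both sums thus also move with the groups, but their markers do not all move alike. The part of any of these cells in the members' levels was not tested.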

How the data were processed

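RNA-seq of 21 embryoid body samples was analysed from 1 deposited table of raw counts per gene symbol for each sample. The submitters' processing notes name FastQC, TopHat2, HTSeq and the builds mm10 and GRCm38, without versions. Library kit (Illumina TruSeq mRNA) is per the labels' protocols, and the strand setting of counting is not given in the sources used here. The 3 tables of the TCF12 dimer libraries keep 25 March and Sept symbols that the other 18 show as dates, so tables were joined by position, and no member is among them. One edgeR 4.0.16 quasi-likelihood fit (limma 3.58.1, R 4.3.3) of all 21 samples, with 1 mean per group, TMM factors and the filterByExpr defaults (count 10, total 15), gave log2 fold changes, standard errors from the F statistic and Benjamini-Hochberg p-values over 14311 genes. CPM values use TMM library sizes. Exon lengths and positions are from GENCODE M21 (GRCm38).

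The members and lists were chosen with earlier results of these data known. Values per sample were given by rule for 19 members: the 16 with the largest range of group means (log2 of CPM + 0.5) among those passing across the groups and reaching 5 CPM, those passing on induction, and those passing in opposite directions in 2 induced lines. Values for Robo2, Ntn4, Unc5b and Unc5c were added after they were seen. In each comparison up to 5 passing members per direction that reach 1 CPM were eligible to be named, and up to 4 genes of the pathway list. DESeq2 1.42.0, RLE size factors, library size alone, no filter, a filter of 1 CPM in 3 samples, a replicate block, fits of only the groups compared, another control line and leaving out each library were alternatives. Floors cover counting error only, and amplified reads are not independent molecules. Standard errors and SDs also hold the spread between the samples of a group.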

Additional observations from a re-analysis of the deposited data

Results flagged for a closer look

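Sema4b and Sema4c passed in opposite directions in different induced lines against the parental line, and the difference between those lines was tested directly with edgeR. Sema4b was higher in the induced monomer than in the libraries labelled TCF12 dimer by 0.78 on the log2 scale (SE 0.11, adjusted p = 2.1e-05), and TCF12 minus monomer was -0.64 without TCF12 dimer sample 1. Sema4c was higher than in the induced monomer by 0.85 in the TCF4 dimer (SE 0.09, adjusted p = 7.4e-07) and by 0.82 in the libraries labelled TCF12 dimer (SE 0.09, adjusted p = 9.1e-07), the latter 0.90 without TCF12 dimer sample 1. For both genes the uninduced monomer line already lay on the side of the induced monomer, at 0.51 for Sema4b and -0.55 for Sema4c against the parental line. TCF12 dimer sample 1, at 21.5 CPM of Sema4b and 33.7 CPM of Sema4c, was the lowest sample of its group for both.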

How the results depend on the processing

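Counts of passing members stayed within 1.5 times of those reported under DESeq2, RLE size factors, no filter and a filter of 1 CPM in all 10 comparisons. Library size alone gave 1 member on induction in the monomer line in place of 3, against 1.68% of all genes. Fitting only the groups compared gave 19 in the TCF4 dimer (29.7% of all genes), 10 in the TCF12 dimer libraries (6.11%), 22 in the uninduced line (38.1%), 5 on induction (5.2%) and 8 among the heterodimers (6.57%). With the uninduced monomer line as control, 19 members passed in the homodimer (15 higher, 4 lower, 6 shared with the 8 against parental; 22.8% of all genes) and 24 in the TCF4 dimer (21 higher, 3 lower, all 9 shared; 32.3%). Shared members are those that passed with both controls, whatever the direction. Leaving out 1 library gave 31 to 39 across the groups, 10 to 24 for the monomer, 8 to 12 for the homodimer, 17 to 27 in the TCF3 libraries, 4 to 22 in the TCF4 dimer, 16 to 30 in the TCF12 libraries, 8 to 23 in the uninduced line, 1 to 5 on induction, 8 to 21 for heterodimers against homodimer and 14 to 28 among the heterodimers. Each highest value came without TCF12 dimer sample 1, when the biological coefficient of variation was 0.0539 in place of 0.12. The fits of only the groups compared have fewer samples and differ in the libraries they hold. Of those listed, the fits with higher counts (TCF4 dimer, uninduced line, induction) hold no TCF12 dimer library. Those with lower counts (TCF12 libraries, among the heterodimers) hold them, sample 1 included. The cause of these and the other changes was not tested. Single-gene results of the 19 members given per sample were followed under 6 of the settings. These were DESeq2, RLE size factors, library size alone, no filter, the 1 CPM filter and the replicate block. None of these 462 results and none of 1617 without 1 library reversed, while 23 and 128 no longer passed. They were not followed in fits of only the groups compared or with the uninduced control. With that control the Slit3 differences of the homodimer, TCF3 and TCF12 groups changed sign, as given above. By group means Slit3 was not alone in this. Sema6a in these groups (77.39, 72.01 and 87.45 CPM) lay below the parental line (148.68 CPM) and above the uninduced line (69.57 CPM). Its TCF3 samples overlapped the uninduced ones, and TCF12 dimer sample 1 lay below them. Sema4g and Unc5b means in the TCF3 libraries also lay between those of the parental and uninduced lines.

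Replicate numbers come from the sample titles, and what they share is not stated. Deviations from the group means had a mean correlation of 0.0214 over 63 same-numbered pairs (-0.221 to 0.344) and -0.0102 over 126 others, and 12 of 21 samples correlated best with their own number. With the replicate block, 36 members passed across the groups, 15 for the monomer, 8 for the homodimer, 22 in the TCF3 libraries, 8 in the TCF4 dimer, 24 in the TCF12 libraries, 14 in the uninduced line, 1 on induction, 12 for heterodimers against homodimer and 19 among the heterodimers. Depth limits members under about 1 CPM, such as Plxna4, Robo2 and Unc5c in the parental line.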
